A study of Mus musculus with 12 samples.

Results

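The genes described here build ribosomes or drive that process: 36 genes for subunits of RNA polymerase I, nucleolar factors that process and assemble ribosomal RNA, and the transcription factor genes Myc and Mycn. They were chosen by name and matched to the array through probe sets that carry a single gene symbol, with the brightest probe set standing for a gene. Of the 36 listed genes, 34 had such a probe set among 17097 genes on the array, and 33 passed the filter on low signal, against 12595 genes in all. Gnl3 and Mybbp1a were not analysed here. Wdr75, a small-subunit factor, had a probe set with 3.40 to 3.88 log2 units on the 12 arrays, below the filter's level of 4.40 on every array, and was not tested.

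Colon adenoma cells of 3 mice were sorted by Mex3a and Lgr5 status, and RNA of each pool was measured on an Affymetrix mouse expression array. Mex3a is the gene of a protein that binds RNA, and Lgr5 that of a receptor by which intestinal stem cells are recognised. The sort gave 4 populations, Mex3a+ cells with and without Lgr5 and Mex3a- cells with and without Lgr5, each with 1 array from every mouse, so that a group held 3 arrays. All mice (MKL347, MKL358 and MKL367) carry the label ki/+, which is not spelled out, and neither their age nor the driver of the adenomas is stated. A replicate is a mouse, and its cells came from several pooled adenomas. Pools held 500 cells for mouse MKL358 and 2000 cells for mice MKL347 and MKL367. The groups compared are sorted on marker status, with no treatment and no adenoma-free tissue. In pooled cells, fewer cells of a type and less RNA per cell cannot be told apart.

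Ribosome production begins in the nucleolus, where RNA polymerase I transcribes the long precursor of the ribosomal RNAs. The small-subunit processome cuts and folds the part that becomes the small subunit, small nucleolar particles of the box C/D and box H/ACA kinds guide changes to ribose or base along the chain, and further factors assemble the large subunit. Myc is known as a transcription factor that raises many of these genes, and in the intestine it is a target of Wnt signalling.

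The sorted markers followed their labels: Mex3a was 1.61-fold higher in Mex3a+ cells (log2 difference 0.69, SE 0.12, limma adjusted p = 0.00162), and Lgr5 2.92-fold higher in Lgr5+ cells (1.55, SE 0.14, limma adjusted p = 0.000872). The markers were not independent of each other: Lgr5 itself was 1.76-fold higher in Mex3a+ cells (limma adjusted p = 0.00139), and 2.42-fold within the Lgr5- cells (0.00214), so the Mex3a comparison also differs in Lgr5 level. In the fit without a block, Lgr5 was not called between Lgr5+ and Lgr5- cells that were Mex3a+ (2.13-fold, 0.584, and 0.0289 with the mouse as a block), and Mex3a was not called within Lgr5+ cells (log2 difference 0.58, 0.0579, and 0.00850 with the block). The epithelial markers Epcam and Krt8 lay between 11.11 and 11.77 on all arrays, yet both were lower in Mex3a+ cells (-0.16 and -0.21, limma adjusted p = 0.0158 and 0.0212). So were Cdh1 (-0.37, 0.0245), Krt19 (-0.59, 0.00231) and the intestinal transcription factor gene Cdx2 (-1.11, 0.000862), while Krt18 had 0.11 and did not pass (0.238, and higher with the block, 0.0293). Their part in the differences described below was not tested. Array medians over all probe sets ran from 4.90 to 4.92 log2 units for Mex3a+ cells and from 4.86 to 4.90 for Mex3a- cells. They were thus slightly higher on the Mex3a+ arrays, and counts under other scalings are given below. Within a population, any pair of arrays had a correlation of 0.984 to 0.994 over the probe sets, whose values are not independent of each other. The 3' to 5' difference of control probe sets, a limited sign of RNA integrity, differed by 0.012 between the Mex3a+ and the Mex3a- arrays.

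The main comparison set the 6 Mex3a+ arrays against the 6 Mex3a- arrays, averaged over Lgr5 status. In the Mex3a+ cells 3 of 7 genes of the small-subunit processome, 2 of 3 of the box H/ACA particle, 8 of 12 of large-subunit assembly and 1 of 3 abundant nucleolar proteins were lower. Of the polymerase subunits, the box C/D proteins and the Myc genes 0 passed, and with the mouse as a block 1 of 3, 3 of 3 and 1 of 2 were lower. Of the 33 genes, 14 were lower (42.4%), 0 higher and 19 did not pass by limma. Over all 12595 genes 17.3% were lower and 9.91% higher. Once the mouse entered as a block, 22 of the 33 were lower and 0 higher, against 25.3% lower and 15.9% higher over all genes. The differences were small: the largest was 1.41-fold, for Wdr12, and the median log2 difference of the 33 genes was -0.22, beside -0.013 over all genes tested (also -0.22 with the untested Wdr75, at 0.12). The median was -0.20 in mouse MKL347, -0.16 in mouse MKL358 and -0.30 in mouse MKL367.

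The sign was negative for 32 of the 33 genes, and Mycn was the exception. In 25 of the 33 the difference was negative in 3 of 3 mice, as it was for 35.3% of all genes. The 7 others with a negative average (Wdr43, Rrp9, Nop56, Rrs1, Noc3l, Ncl and Npm1) were lower in 2 of 3 mice. For all of these except Noc3l the mouse that differed was MKL358, with differences between 0.0034 (Rrp9) and 0.090 (Ncl), and for Noc3l it was mouse MKL347, with 0.12. For 7 genes all 6 Mex3a+ arrays lay below all 6 Mex3a- arrays: Utp20, Rrp12, Nhp2, Wdr12, Rrp1b, Ebna1bp2 and Nolc1. That pattern held for 9.02% of all genes, and the opposite pattern for 0 of the 33 and for 4.27% of all genes.

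**Figure D1:**
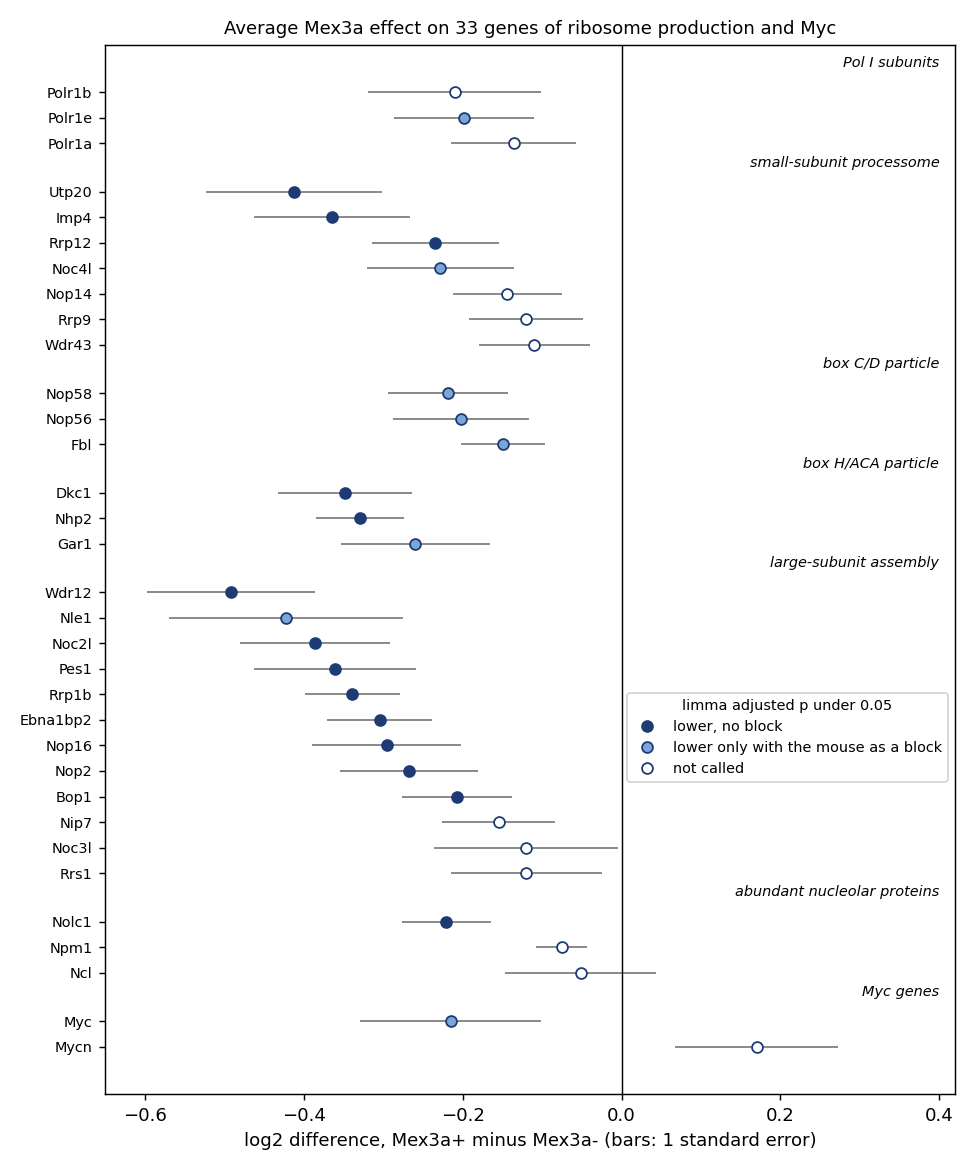
The log2 difference between Mex3a+ and Mex3a- cells is plotted for each of the 33 genes, grouped by role, with bars of 1 standard error. Dark points passed limma's test, light blue points passed only with the mouse as a block, and white points did not pass. All points but Mycn lie left of 0, with Wdr12 at -0.49 the farthest.

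The polymerase subunits act first in the pathway, and 0 of the 3 passed without the block. Polr1e, the mouse counterpart of a subunit that helps the enzyme start and elongate, read 4.88, 4.76 and 4.87 log2 units in Mex3a+ Lgr5+ cells of mice MKL347, MKL358 and MKL367, and 5.16, 4.79 and 4.90 in Mex3a+ Lgr5- cells. In the Mex3a- cells it read 5.14, 4.92 and 5.05 with Lgr5 and 5.21, 4.91 and 5.32 without. The Mex3a+ arrays overlapped with the Mex3a- arrays, though within each mouse and Lgr5 status the Mex3a+ array was the lower in 6 of 6 pairs. The share of all genes with such a 6 of 6 pattern was not counted, here or for the Myc genes below. Pairs of the same mouse may not be independent. The log2 difference was -0.20 (SE 0.088, limma adjusted p = 0.120), and with the mouse as a block the limma adjusted p was 0.0311. Polr1a, the largest subunit, had -0.14 (SE 0.079, limma adjusted p = 0.232), and Polr1b, the second largest and part of the catalytic core, -0.21 (SE 0.11, limma adjusted p = 0.178). Neither passed with the block (limma adjusted p = 0.133 and 0.122).

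In the small-subunit processome 3 of the 7 genes tested were lower and 0 higher (4 lower with the mouse as a block). Utp20, a large scaffold protein of this particle, read 7.21, 6.98 and 7.06 in Mex3a+ Lgr5+ cells and 7.16, 6.90 and 6.97 in Mex3a+ Lgr5- cells, in the order of mice MKL347, MKL358 and MKL367. It read 7.72, 7.39 and 7.33 in Mex3a- Lgr5+ cells and 7.77, 7.31 and 7.24 in Mex3a- Lgr5- cells. The highest Mex3a+ array lay just below the lowest Mex3a- array, and mouse MKL347 was the highest of the mice in every population. The log2 difference was -0.41 (SE 0.11, 1.33-fold, limma adjusted p = 0.0164).

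Imp4, a protein that binds the U3 small nucleolar RNA with its partners in this particle, read 7.29, 7.18 and 7.01 in Mex3a+ Lgr5+ cells and 7.13, 7.001 and 7.07 in Mex3a+ Lgr5- cells. It read 7.35, 7.35 and 7.58 in Mex3a- Lgr5+ cells and 7.56, 7.24 and 7.79 in Mex3a- Lgr5- cells. The groups overlapped by 2 arrays, the Mex3a+ Lgr5+ array of mouse MKL347 and the Mex3a- Lgr5- array of mouse MKL358. The log2 difference was -0.36 (SE 0.099, limma adjusted p = 0.0171). Rrp12, an export factor of pre-ribosomes, read 5.78, 5.94 and 5.73 in Mex3a+ Lgr5+ cells and 5.94, 5.93 and 5.57 in Mex3a+ Lgr5- cells. It read 6.04, 6.07 and 6.02 in Mex3a- Lgr5+ cells and 6.09, 6.12 and 5.95 in Mex3a- Lgr5- cells. The groups did not overlap, but the gap between them was under 0.02, and the difference of -0.23 (SE 0.080) passed narrowly (limma adjusted p = 0.0477).

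Of the other small-subunit genes, Noc4l, a partner of Nop14, had -0.23 and passed with the block (limma adjusted p = 0.0894, and 0.00686 with the block). Its brightest probe set is of a kind that can bind related sequences. The other probe sets of Noc4l gave larger differences of -0.36 and -0.46 (limma adjusted p = 0.0181 and 0.00526, taken over every probe set). Nop14, Rrp9 and Wdr43 had differences from -0.14 to -0.11 and did not pass with or without the block.

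The small nucleolar particles guide chemical changes of the ribosomal RNA, methyl groups for box C/D and pseudouridine for box H/ACA. All 3 box C/D proteins measured here missed the threshold without the block and passed with it. Nop58, a core protein of the particle, read 9.24, 9.16 and 9.005 in Mex3a+ Lgr5+ cells and 9.30, 9.06 and 9.06 in Mex3a+ Lgr5- cells. It read 9.41, 9.35 and 9.39 in Mex3a- Lgr5+ cells and 9.49, 9.13 and 9.36 in Mex3a- Lgr5- cells. The overlap came from the Mex3a- Lgr5- array of mouse MKL358, which lay below 3 Mex3a+ arrays. The log2 difference was -0.22 (SE 0.076, limma adjusted p = 0.0518, and 0.00682 with the block). Fbl, the methyltransferase itself, had -0.15 (limma adjusted p = 0.0554, and 0.00773 with the block), and Nop56, the partner of Nop58, had -0.20 (0.102, and 0.0468 with the block).

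Of the 3 box H/ACA proteins 2 were lower, and all 3 with the block. Nhp2, which binds the RNA of the particle, read 9.50, 9.55 and 9.50 in Mex3a+ Lgr5+ cells and 9.61, 9.40 and 9.49 in Mex3a+ Lgr5- cells. It read 9.78, 9.80 and 9.80 in Mex3a- Lgr5+ cells and 9.80, 9.84 and 10.01 in Mex3a- Lgr5- cells. The Mex3a- Lgr5+ arrays agreed to 0.02, and the gap between the Mex3a groups was wider than the range within any population but the Mex3a- Lgr5- and the Mex3a+ Lgr5- one. The log2 difference was -0.33 (SE 0.055, 1.26-fold), with the smallest adjusted p of the 33 genes (limma adjusted p = 0.00124). Its other probe set gave -0.40. Dkc1, the pseudouridine synthase, which is also part of telomerase, was lower by a similar amount (-0.35, SE 0.084, limma adjusted p = 0.00989), with the Mex3a- Lgr5- array of mouse MKL358 inside the range of the Mex3a+ arrays. Gar1, another core protein of the particle, had -0.26 (limma adjusted p = 0.0603, and 0.0142 with the block).

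Factors of the large subunit formed the largest group, and 8 of the 12 tested were lower and 0 higher (9 lower with the block), and their median log2 difference was -0.30. Wdr12 works in a complex with Pes1 and Bop1 that is needed to process the RNA of the large subunit, and all 3 were lower. Wdr12 read 7.22, 7.16 and 6.80 in Mex3a+ Lgr5+ cells and 7.20, 6.92 and 6.93 in Mex3a+ Lgr5- cells. It read 7.37, 7.36 and 7.51 in Mex3a- Lgr5+ cells and 7.87, 7.38 and 7.69 in Mex3a- Lgr5- cells. The groups did not overlap, and the difference was -0.49 (SE 0.11, limma adjusted p = 0.00508), from -0.33 in mouse MKL358 to -0.74 in mouse MKL367. Pes1 had -0.36 (SE 0.10, limma adjusted p = 0.0216) and Bop1 -0.21 (SE 0.069, limma adjusted p = 0.0444). For Wdr12 and Pes1 a second, much dimmer probe set gave 0.057 and 0.070, which did not pass.

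Rrp1b, a nucleolar protein of large-subunit maturation, read 7.10, 7.17 and 7.08 in Mex3a+ Lgr5+ cells and 7.01, 7.07 and 7.06 in Mex3a+ Lgr5- cells. It read 7.41, 7.55 and 7.47 in Mex3a- Lgr5+ cells and 7.36, 7.41 and 7.33 in Mex3a- Lgr5- cells. The groups were apart by more than the range within any population, and the difference was -0.34 (SE 0.060, limma adjusted p = 0.00166). A second probe set of nearly the same brightness gave -0.11 and did not pass (limma adjusted p over all probe sets 0.331). Ebna1bp2, an assembly factor for the early large-subunit precursor, read 8.14, 8.25 and 8.01 in Mex3a+ Lgr5+ cells and 8.12, 8.14 and 7.99 in Mex3a+ Lgr5- cells. It read 8.29, 8.43 and 8.40 in Mex3a- Lgr5+ cells and 8.45, 8.39 and 8.52 in Mex3a- Lgr5- cells. The groups did not overlap, and the difference was -0.30 (SE 0.066, limma adjusted p = 0.00519).

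Noc2l, part of a complex that accompanies the precursor out of the nucleolus, was lower as well (-0.39, limma adjusted p = 0.0102), while its partner Noc3l had -0.12 and did not pass (0.480). Nop2, a methyltransferase of the large-subunit RNA, and Nop16, a nucleolar assembly factor, were lower, at -0.27 and -0.30 (limma adjusted p = 0.0391 and 0.0351). A dimmer probe set of Nop16 gave 0.14, which did not pass. Nle1, which serves a late release step, had -0.42 but a wide spread (SE 0.15, limma adjusted p = 0.0517, and 0.00798 with the block). Nip7, an RNA-binding assembly factor, had -0.15 and Rrs1 -0.12, and neither passed in either fit. The probe set used for Rrs1 is, as for Noc4l, of a kind that can bind related sequences. The other probe set of Rrs1, a partner in the assembly of the 5S particle, gave -0.41 and passed (limma adjusted p over all probe sets 0.0361).

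Of the abundant nucleolar proteins tested only Nolc1 passed, and differences between these genes were not tested. Nolc1, a chaperone of small nucleolar particles, read 8.76, 8.79 and 8.66 in Mex3a+ Lgr5+ cells and 8.65, 8.59 and 8.60 in Mex3a+ Lgr5- cells. It read 8.88, 9.003 and 8.83 in Mex3a- Lgr5+ cells and 8.84, 8.92 and 8.90 in Mex3a- Lgr5- cells. The groups did not overlap, and the difference was -0.22 (SE 0.056, limma adjusted p = 0.0123). Another probe set of Nolc1 gave -0.52. Npm1, a histone chaperone of the nucleolus, had -0.075 (SE 0.032, limma adjusted p = 0.108), and Ncl, the nucleolin gene, had -0.051 (limma adjusted p = 0.732), with 0.016 after a further quantile normalization and 0.041 without mouse MKL367. The single probe set used for Ncl averaged 7.19 log2 units over the 12 arrays, beside 11.72 for Npm1.

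The Myc genes went different ways, and neither passed the test without the block. Myc read 9.03, 8.76 and 8.96 in Mex3a+ Lgr5+ cells and 9.15, 8.71 and 8.95 in Mex3a+ Lgr5- cells. It read 9.16, 9.04 and 9.18 in Mex3a- Lgr5+ cells and 9.31, 8.76 and 9.39 in Mex3a- Lgr5- cells. The groups overlapped widely because mouse MKL358 read lowest in every population, but the Mex3a+ array was the lower in 6 of 6 pairs of the same mouse and Lgr5 status. The log2 difference was -0.22 (SE 0.11, limma adjusted p = 0.189), and Myc was lower with the mouse as a block (limma adjusted p = 0.0205). It also passed in the fit with no block once mouse MKL358 (0.0302) or its Mex3a- Lgr5- array alone (0.0218) was left out. Mycn, a paralog of Myc, read 7.59, 7.90 and 7.57 in Mex3a+ Lgr5+ cells and 7.53, 7.69 and 7.90 in Mex3a+ Lgr5- cells. It read 7.59, 7.83 and 7.44 in Mex3a- Lgr5+ cells and 7.38, 7.61 and 7.31 in Mex3a- Lgr5- cells. Its Mex3a+ array was the higher in 6 of 6 pairs, though only at 7.5911 against 7.5904 in Lgr5+ cells of mouse MKL347. The difference was 0.17 (SE 0.10), and Mycn passed in neither fit (limma adjusted p = 0.247, and 0.106 with the block). It was called higher in 2 combined settings, the block after a further quantile normalization and the block with the Mex3a+ Lgr5- array from mouse MKL358 dropped. A dimmer probe set of Mycn, near the filter's level, gave -0.16.

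**Figure D2:**
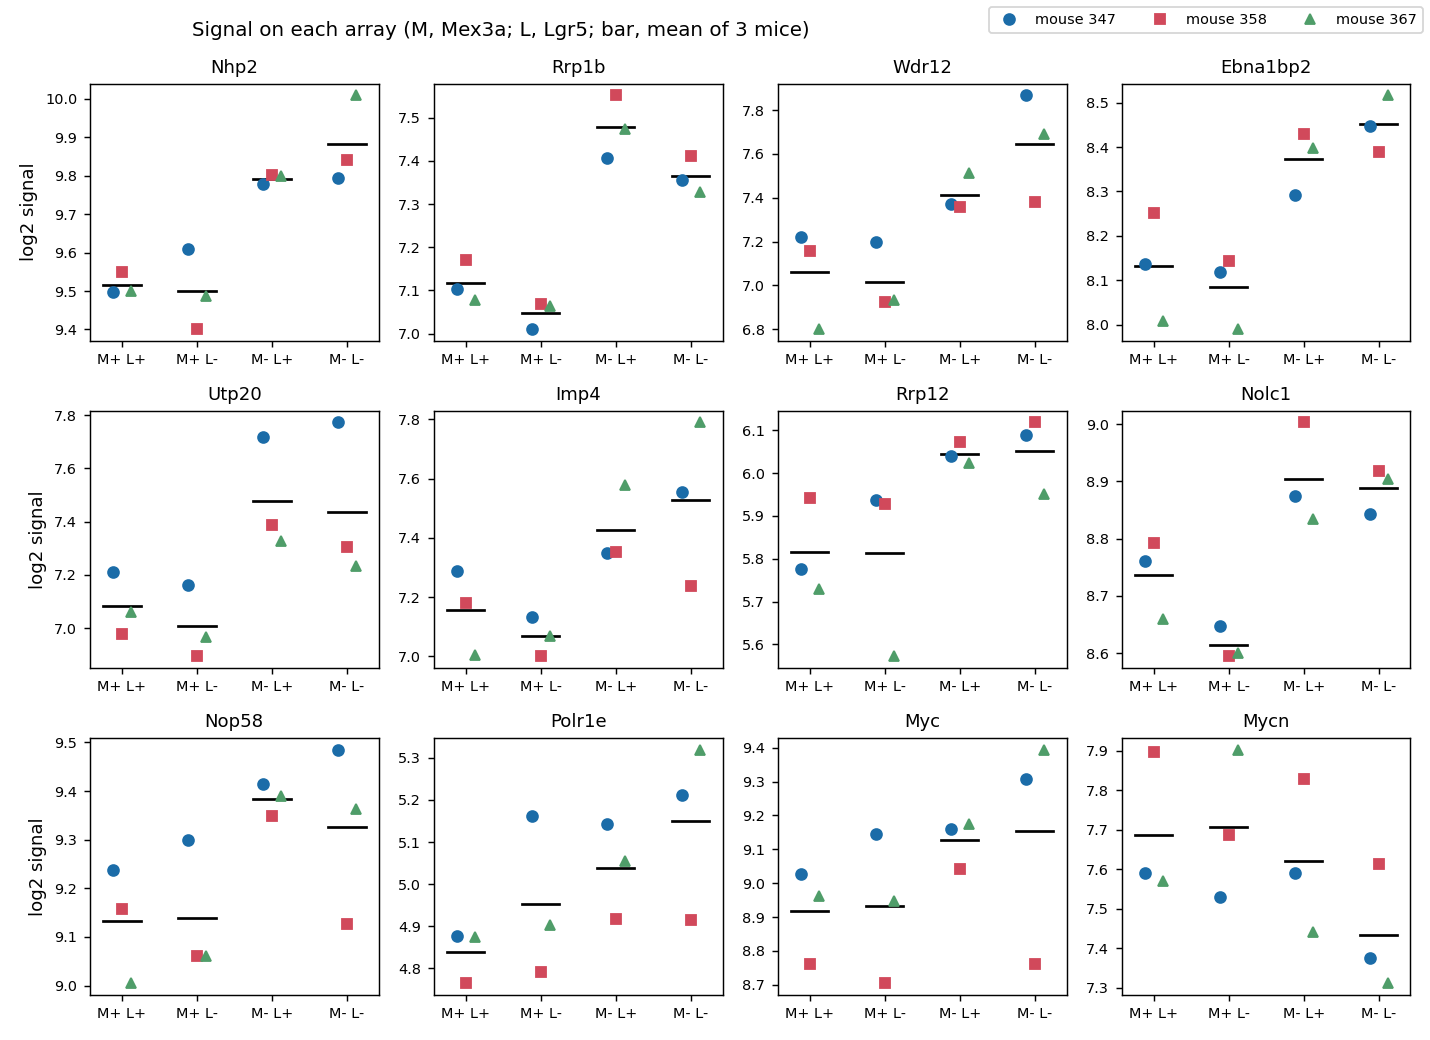
The log2 signal of 12 genes is shown on every array, by population (M, Mex3a; L, Lgr5), with a bar at the mean of 3 mice. Each panel has its own scale, which does not start at 0. Nhp2, Rrp1b, Wdr12, Ebna1bp2, Utp20, Rrp12 and Nolc1 have no Mex3a+ array above a Mex3a- array; in the Myc panel mouse MKL358 reads lowest in every population.

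How firmly the 14 calls held differed between genes. Mice and arrays were left out here in the fit without a block, and single genes were not followed in this way with the block. Nhp2 kept its call in all 25 alternatives run for single genes, at a limma adjusted p of at most 0.0479. Wdr12 lost it only without mouse MKL367 (0.123), and Rrp1b, Dkc1 and Noc2l only without mouse MKL347 (0.0549, 0.0944 and 0.141) or mouse MKL367 (0.0533, 0.175 and 0.140). Ebna1bp2, Imp4 and Nolc1 lost it without either of those mice and in 1 further setting, Utp20 without any of the mice (0.0576 to 0.0769). No single array ended the call of these 9 genes. For the other 5 single arrays did. Pes1 lost its call without 4 of the 12 arrays, namely both Mex3a+ arrays from mouse MKL367, the Mex3a+ Lgr5+ array from mouse MKL347 and the Mex3a- Lgr5+ array from mouse MKL358 (0.0508 to 0.0581). Rrp12, Nop2 and Nop16 lost it without any of 8 arrays each (0.0518 to 0.110), and Bop1 without any but the Mex3a+ Lgr5+ array from mouse MKL358 and the Mex3a+ Lgr5- array from mouse MKL347. Leaving out mouse MKL347 took the count of 14 to 2, leaving out mouse MKL367 to 1 and leaving out mouse MKL358 to 18. Over all genes 5.83%, 7.70% and 17.2% were then lower, so the members' shares were near that background without mouse MKL347 (6.06%), below it without mouse MKL367 (3.03%) and above it without mouse MKL358 (54.5%). The count was 9 without either Mex3a+ array of mouse MKL367, and also 9 when the Mex3a- Lgr5+ array of mouse MKL358 was dropped, against 13.3% to 14.4% of all genes. The blocked fit, with mouse as a term, gave 14, 25 and 10 lower genes without mice MKL347, MKL358 and MKL367, against 22, where 18.5%, 22.6% and 17.6% of all genes were lower.

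The promoters of these genes were searched for CACGTG, the E-box that Myc with its partner Max is known to bind. The word reads the same on both strands, so 1 search covers both, and no other motif was searched. RefSeq promoter entries (GRCm38.p6, 250 bases before to 50 after a start) existed for 28 of the 34 measured genes and lacked Fbl, Rrp12, Myc, Npm1, Bop1 and Rrs1. The word occurred for 6 of the 28 (21.4%), beside 19.1% of 89 other genes of ribosome production, 10.2% of genes with a probe set and 8.09% of all 27025 genes in the table. Of 25 listed Myc target genes outside the nucleolus with an entry, 10 held it (40%), a larger share than that of the 28. In the 250 bases before the start alone, 2 of the 28 held it (7.14%). There the shares were 11.2% of the 89 other genes of ribosome production, 8.75% of genes with a probe set and 40% of the 25 Myc target genes. The 30 bases around each match follow, 5′ to 3′ on the gene's strand with the word in capitals, since these are the matches the count rests on.
Imp4: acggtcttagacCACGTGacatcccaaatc
Nop2: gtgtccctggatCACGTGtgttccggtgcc
Utp20: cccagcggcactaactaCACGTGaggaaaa
Pes1: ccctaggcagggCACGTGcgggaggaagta
Nle1: tcggttctcctcCACGTGgggacgcaggat
Wdr43: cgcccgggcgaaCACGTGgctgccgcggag

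In Imp4 (chr1:34439696-34439725, plus strand) and Nop2 (chr6:125131811-125131840, plus strand) the word begins at positions -121 and -60 relative to the start. In Utp20 (chr10:88826765-88826794, minus strand), Pes1 (chr11:3963965-3963994, plus strand), Nle1 (chr11:82908355-82908384, minus strand) and Wdr43 (chr17:71616220-71616249, plus strand) it lies within the first 50 bases after the start. Of these 6 genes Imp4, Nop2, Utp20 and Pes1 were lower in Mex3a+ cells, and Nle1 as well once the mouse was a block. Their median log2 difference was -0.36. Of the 21 tested genes with a promoter entry and without the word, 8 were lower (13 with the block), with a median of -0.22. A match is a string of letters in this window and no measure of binding. The full 250 bases before the start of the pair with an upstream match are given to show the setting of the word.
Imp4, chr1:34439579-34439828: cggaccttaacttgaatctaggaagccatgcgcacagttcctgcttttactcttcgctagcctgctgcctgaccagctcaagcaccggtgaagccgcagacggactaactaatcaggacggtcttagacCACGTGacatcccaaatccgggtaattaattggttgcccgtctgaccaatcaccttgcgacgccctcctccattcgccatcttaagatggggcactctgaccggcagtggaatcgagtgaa
Nop2, chr6:125131633-125131882: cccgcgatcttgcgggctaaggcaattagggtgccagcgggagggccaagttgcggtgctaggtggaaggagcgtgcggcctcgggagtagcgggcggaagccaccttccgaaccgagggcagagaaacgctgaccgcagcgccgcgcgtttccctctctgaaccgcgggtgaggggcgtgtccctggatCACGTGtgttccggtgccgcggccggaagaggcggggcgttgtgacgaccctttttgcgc

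The Mex3a difference was also taken within each Lgr5 status, 3 arrays against 3, from the same arrays as the average. In Lgr5+ cells 2 of the 33 genes were lower by limma, Rrp1b (-0.36, SE 0.084, limma adjusted p = 0.0262) and Dkc1 (-0.47, SE 0.12, limma adjusted p = 0.0338), against 4.80% of all genes, so the share of 6.06% lay near the background. With the mouse as a block 11 were lower, against 13.2% of all genes. In Lgr5- cells 6 were lower: Nhp2 (-0.38, limma adjusted p = 0.00718), Wdr12 (-0.63, 0.0144), Ebna1bp2 (-0.37, 0.0194), Rrp1b (-0.32, 0.0246), Nolc1 (-0.27, 0.0346) and Imp4 (-0.46, 0.0421). The share over all genes was 11.7%, and with the block 9 of the 33 and 21.1% of all genes were lower. No member was higher in either, against 3.21% and 5.15% of all genes (8.84% and 10.8% with the block). The medians were -0.25 in Lgr5+ and -0.22 in Lgr5- cells. Both counts were 0 without mouse MKL347 (0.143% and 1.52% of all genes in Lgr5+ and Lgr5- cells) or without mouse MKL367 (1.01% and 3.83%). Dropping mouse MKL358 gave 4 lower genes in Lgr5+ and 9 in Lgr5- cells, against 5.41% and 11.5% of all genes. Single arrays decided them as well: the count in Lgr5+ cells was 0 when any 1 Mex3a- Lgr5+ array, or the Mex3a+ Lgr5+ array from mouse MKL347 or MKL367, was dropped, and 4 when that from mouse MKL358 was. The share over all genes was 0.969% to 3.74% in the first case and 6.33% in the second. In Lgr5- cells it was 1 when the Mex3a+ array from mouse MKL367 or the Mex3a- array from mouse MKL347 was dropped, and 3 when the Mex3a+ array from mouse MKL347 or the Mex3a- array from mouse MKL367 was, against 5.88% and 7.19% of all genes in the first 2 cases and 9.80% and 10% in the others.

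These counts do not show that the Mex3a difference depends on Lgr5 status. The interaction of the 2 markers was called for 0 of the 33 genes and 0% of all genes by limma, with or without the block, with 0 members at an unadjusted p under 0.05 without the block and 2 with it. Those 2, named after their values were seen, were Dkc1 (-0.25, limma adjusted p = 0.579 with the block) and Rrs1 (-0.36, 0.453), both with the more negative Mex3a difference in Lgr5+ cells.

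The comparison of Lgr5+ with Lgr5- cells, 6 arrays against 6, gave 0 calls among the 33 genes by limma, against 0.0397% of all genes. With the mouse as a block there were also 0, against 1.80% of all genes, and 0 members had an unadjusted p under 0.05 in either fit. Differences ran from -0.11 (Polr1e) to 0.19 (Nle1), with a median of 0.034. Myc had -0.022 (SE 0.11) and Nhp2 -0.037 (SE 0.055). Missing the threshold does not show that the populations are alike. Within Mex3a+ cells and within Mex3a- cells 0 of the 33 passed as well, against 0% and 0.0318% of all genes, with medians of 0.000015 and 0.068. With the block these counts were also 0, against 0.0715% and 1.62%, and the 1 member at an unadjusted p under 0.05 was Rrs1 in Mex3a- cells (0.22, limma adjusted p = 0.269 with the block).

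**Figure D3:**
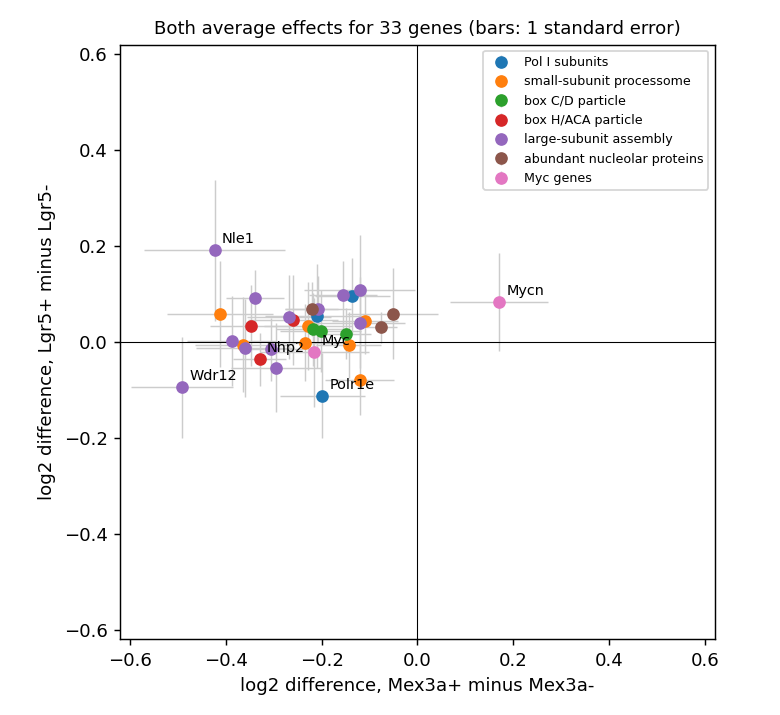
Each of the 33 genes is placed by its average Mex3a difference (horizontal) and its average Lgr5 difference (vertical), both on the same log2 scale with bars of 1 standard error and colours for the role. The points spread to the left, to -0.49 for Wdr12, and stay between -0.11 and 0.19 on the vertical axis.

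For 30 of the 33 genes both Mex3a- populations had higher means than both Mex3a+ populations, as did 37.4% of all genes. The order within each Mex3a status varied, and the commonest full order held for 11 genes. Mex3a- Lgr5+ cells had the highest mean for 23 of the 33 genes, as they did for 19.3% of all genes, and Mex3a- Lgr5- cells for 9 (33.9% of all genes). The lowest mean fell to Mex3a+ Lgr5- cells for 17 and to Mex3a+ Lgr5+ cells for 14 (30.2% and 22.7% of all genes). Neighbours in this order that share their Mex3a status passed the test for 0 of the 33. With the 12-array mean of each gene subtracted, the 33 genes averaged -0.12, -0.036 and -0.18 in Mex3a+ Lgr5+ cells of mice MKL347, MKL358 and MKL367 and -0.061, -0.11 and -0.18 in Mex3a+ Lgr5- cells. They averaged 0.12, 0.18 and 0.12 in Mex3a- Lgr5+ cells and 0.16, -0.033 and 0.14 in Mex3a- Lgr5- cells. By these averages Mex3a- Lgr5- cells were the higher in mice MKL347 and MKL367, and Mex3a- Lgr5+ cells only in mouse MKL358. The count of 23 genes thus leans on mouse MKL358, and it was not taken again without that mouse. The Mex3a- Lgr5- array of mouse MKL358, from a pool of 500 cells, was the single Mex3a- array below 0. Genes of the S phase of the cell cycle had their lowest level on the same array, at -0.26. The same array had the highest level of the neutrophil, enteroendocrine and myeloid lists among the 12, at 1.30, 0.89 and 0.32 on the same scale. The part of these levels in its values was not tested. Without that array 19 of the 33 genes were lower in Mex3a+ cells, against 17.7% of all genes (14 and 17.3% with all 12 arrays).

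**Figure D4:**
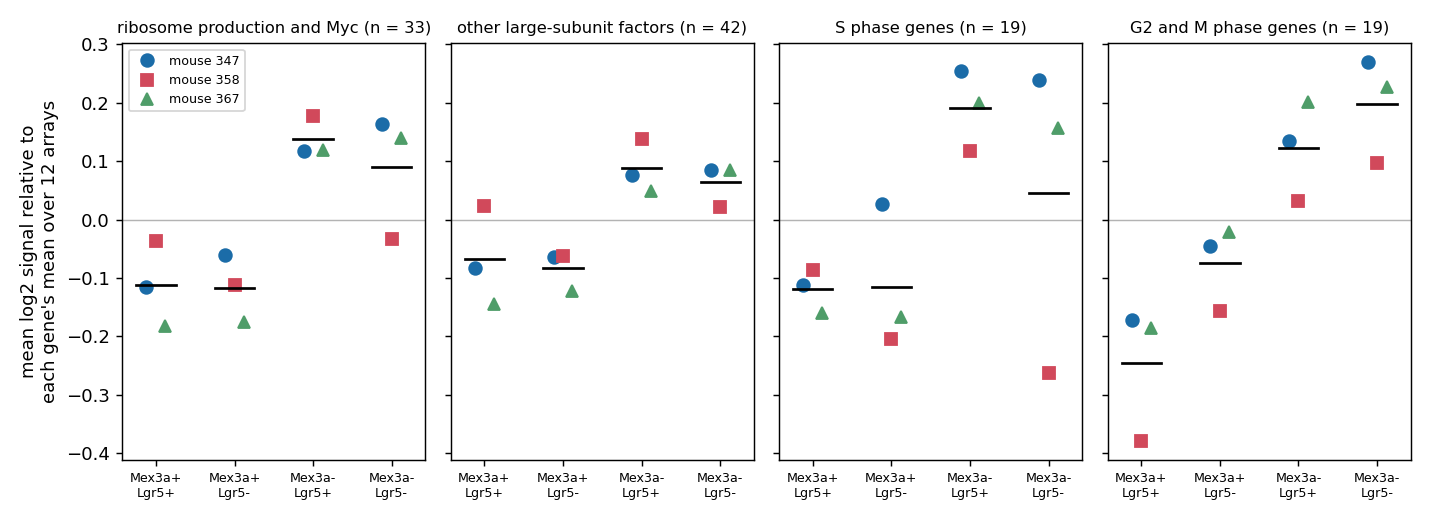
The mean log2 signal of 4 gene lists, with the 12-array mean of each gene subtracted, is plotted for every array by population, with a bar at the mean of 3 mice. The 33 genes (left) and the other large-subunit factors are higher in the Mex3a- populations; on the Mex3a- Lgr5- array of mouse MKL358 the 33 genes lie at -0.033 and the S phase genes at -0.26.

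Other genes of ribosome production, 112 listed and 96 tested, were taken from the same fit. By limma 36 were lower (37.5%) and 1 higher, and 59 missed the threshold (46 lower and 2 higher with the block), with a median of -0.18. Over all genes 17.3% were lower and 9.91% higher (25.3% and 15.9% with the block), and the counts below stand beside these shares. Among the other subunits and factors of RNA polymerase I, 3 of 10 were lower and 1 higher. The polymerase subunits Polr1h and Polr1d were lower (-0.33 and -0.42, limma adjusted p = 0.00362 and 0.00339), and Taf1b, a factor that selects the promoter, was higher (0.36, limma adjusted p = 0.00662). Of 32 other small-subunit factors 10 were lower and 0 higher, among them Rrp7a (-0.74, limma adjusted p = 0.000215) and Wdr46 (-0.45, 0.00212). Of 12 other snoRNP and exosome factors 9 were lower, with Mphosph6 (-0.42, limma adjusted p = 0.00182) and the exosome subunit Exosc8 (-0.46, 0.00188) in front. Of 42 other large-subunit factors 14 were lower and 0 higher (21 and 1 with the block), with Ftsj3 and Nifk both at -0.38 (limma adjusted p = 0.00483 and 0.00498).

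Beyond the ribosome, partners and antagonists of Myc did not share a direction: 3 of 13 were lower, 1 was higher and 9 missed the threshold (3 lower and 4 higher with the block), with a median of 0.032. The count of lower genes lay near the share over all genes (17.3%, and 25.3% with the block). Over all genes 9.91% were higher, and 15.9% with the block. Mlx, a partner of the related Mondo factors, was lower (-0.95, limma adjusted p = 3.7e-05), and so was Mxd1, which opposes Myc and is known from differentiating cells (-0.88, limma adjusted p = 0.00824). Of 23 Myc target genes outside the nucleolus 7 were lower and 0 higher (10 and 1 with the block), with a median of -0.13. Ldha, a lactate dehydrogenase gene, had -0.31 (limma adjusted p = 0.00109) and Phb, a mitochondrial prohibitin, -0.38 (0.00119).

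Markers of mature cells and of dividing cells moved in the same comparison. Over all genes 17.3% were lower and 9.91% higher (25.3% and 15.9% with the block), and each count below stands beside these shares. Of 14 colonocyte genes 13 were lower and 1 higher, with a median of -2.28, and 11 of 11 goblet cell genes were lower, with a median of -1.07. Summed over all 15 colonocyte genes measured, tested or not, log2 levels were 87.6 to 93.2 in Mex3a+ Lgr5+ cells and 89.2 to 102 in Mex3a+ Lgr5- cells. They were 113 to 123 in Mex3a- Lgr5+ cells and 124 to 131 in Mex3a- Lgr5- cells. The goblet list gave 77.9 to 83.4 and 79.2 to 81.0 against 93.9 to 99.01 and 100.1 to 105.8. Genes of the G2 and M phases were lower for 11 of 19 (median -0.32), and of the S phase for 5 of 19 (median -0.23), with 0 higher in each (16 and 11 lower with the block). The part of these cell types and of cell division in the differences of the 33 genes was not tested. Of the stromal, blood and rarer epithelial cell markers, 0 of 8 fibroblast, 0 of 8 endothelial, 0 of 6 lymphocyte and 0 of 5 enteroendocrine genes passed, 2 of 7 myeloid and 1 of 5 neutrophil genes were lower, and of 4 tuft cell genes 1 was lower and 1 higher. The defining markers Col1a2, Pdgfra, Ptprc, Itgam, Cd3e and Ms4a1 lay below the filter's level on all 12 arrays. Yet 8 of 14 listed fibroblast and smooth muscle genes, 7 of 12 myeloid and 5 of 10 neutrophil genes passed the filter. So did 8 of 10 listed endothelial and 6 of 12 listed lymphocyte genes. Single arrays stood apart in these lists: the fibroblast list lay at 0.74 above its 12-array mean in Mex3a- Lgr5+ cells of mouse MKL367, and the neutrophil list at 0.84 and 1.30 in the Mex3a- Lgr5+ and Mex3a- Lgr5- cells of mouse MKL358. With the block 4 of the 5 neutrophil genes tested were lower in Mex3a+ cells, against 25.3% of all genes. The part of these lists in the differences of the 33 genes was not tested.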

How the data were processed

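Expression was measured on 12 arrays, 4 sorted populations from each of 3 mice. Per the labels' protocols, 25 ng of total RNA was amplified as whole transcriptome cDNA, and 8 µg of it was fragmented and labelled. The signals the authors deposited are on a log2 scale and come from RMA, per the submitters' processing notes; which software and settings ran it is not given in the sources used here, and neither are extraction or scan batches. No further scaling was applied. Of 45141 probe sets, 28898 carry 1 gene symbol, 551 several and 15692 none (104 of these are controls). The first kind was used, through the brightest probe set of a gene, a choice that matters for the 7180 genes with several. Genes above the 40th percentile of all values (4.40) on at least 3 arrays were tested.

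Linear models were fitted per gene in limma 3.58.1 (R 4.3.3), 1 mean for each population over all 12 arrays, with an intensity trend and 2-sided tests. A call is a Benjamini-Hochberg adjusted p below 0.05, taken over all 12595 genes. The 7 comparisons were the Mex3a and the Lgr5 difference, on average and within each state of the other marker, and the interaction. The main model leaves out the mouse, and results of a second model that has it as a block stand beside it. The titles' mouse number gives the pairing: with population means removed, the correlation over genes was 0.349 to 0.694 between arrays of 1 mouse (18 pairs) and -0.691 to 0.152 between mice (48 pairs). The code was tested on simulated data. The number of arrays limits the precision.

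The genes, gene lists and tests were chosen with earlier results of these data known, so counts and medians describe the lists and no list was tested. Values on every array are given for Myc, Mycn and the genes with the smallest p of each role (1 for roles of 3 or 4 genes, 3 for larger ones), and for other lists the 2 genes with the smallest p; others named were picked after their values were seen. Alternatives were the block, the mouse as a random effect, other filters, scalings, probe set choices and variance settings, and leaving out mice or arrays. The block combined with leaving out mice or arrays or with another scaling, and centring on the tested genes, were added after seeing the data. Gene symbols come from the platform table and promoters from RefSeq. Plots were made in matplotlib 3.10.9 (Python 3.11.15).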

Additional observations from a re-analysis of the deposited data

How the results depend on the processing

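Of the 33 genes, 14 were lower by Mex3a status on average (17.3% of all genes; the shares in brackets are those of all genes lower in the same setting). The count was 22 with the replicate block by mouse (25.3%), 23 with the mouse as a random effect (24.3%), 25 with array weights (21.7%), 8 after a further quantile normalization (13.3%) and 9 after centring on the tested genes (13.7%), the last 2 all among the 14. Median centring without the block gave 19 (20.1%). The block gave 25 with median centring (28.7%) and, after quantile normalization, 14 lower (20.5%) and 1 higher, Mycn. The count was 1 to 18 without a mouse (5.83% to 17.2%), 9 to 19 without an array (13.3% to 17.7%), and 10 to 27 with the block and 1 of these left out (17.6% to 26.2%), and Mycn was called higher with the block and the Mex3a+ Lgr5- array from mouse MKL358 dropped. In Lgr5+ cells the count of 2 (4.80%) became 11 with the block (13.2%), 8 with the random effect (11.6%) and 10 with weights (10.9%). It was 4 with a filter at the 60th percentile (7.33%) or median centring (5.6%). It was 1 after quantile normalization (4.18%) or centring on the tested genes (4.14%). Without a mouse it was 0 to 4 (0.143% to 5.41%), and without an array 0 to 4 (0.969% to 6.33%). In Lgr5- cells the count of 6 (11.7%) became 9 with the block (21.1%) or the random effect (19.8%) and 7 with weights (13.9%). It was 1 after quantile normalization (7.88%) and 2 with the mean of probe sets (12.6%), where the members' shares of 3.03% and 6.06% lay below the background. It was 3 after centring on the tested genes (8.56%). Without a mouse it was 0 to 9 (1.52% to 11.5%), and without an array 1 to 6 (5.88% to 12%). The Lgr5 and interaction counts were 0 in all settings run. The median of -0.22 was -0.14 after quantile normalization and -0.26 to -0.17 without a mouse. Ncl turned to 0.016 after quantile normalization, -0.12 to 0.041 without a mouse and 0.0068 with the Mex3a+ Lgr5- array of mouse MKL367 dropped. Promoters with the E-box were 6, and 2 before the start. The lower share of all calls was 63.5%, 53.5% after quantile normalization, 70.7% after median centring and 50.9% after centring on the tested genes. The causes were not tested. Only 3 mice limit these counts, which were lowest without mice MKL347 or MKL367.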

Other observations

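Probe sets of 1 gene did not always give the same difference between Mex3a+ and Mex3a- cells. Nhp2 was lower by both of its probe sets (-0.33 and -0.40, limma adjusted p = 0.00192 and 0.00375, here and below taken over every probe set). Dkc1 had -0.35 by the brighter and -0.47 by the dimmer probe set, and the dimmer did not pass (0.0130 and 0.0731). Noc2l had -0.39 and -0.089, of which the second did not pass (0.0139 and 0.637). Imp4 had -0.36 and, near the filter's level, -0.030 (0.0234 and 0.833). For Polr1a the 3 probe sets gave -0.14, -0.042 and 0.077, and none passed (0.294, 0.754 and 0.716). Npm1 had -0.075 and -0.25, and neither passed (0.175 and 0.351).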
